A study of Homo sapiens with 60 samples.

Results

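The responses of SW1783 cells to Longan Arillus and to Yijin-tang were set against each other, gene by gene, in 12 of the 60 libraries of the series. SW1783 is an established line from a human astrocytoma, a tumour of glial cells, distributed by the ATCC and kept in Leibovitz's L-15 medium. Longan Arillus was given as a 70% ethanol extract of 1 herb and Yijin-tang, a decoction of several herbs, as a hot water extract. Each extract was applied for 24 h, and messenger RNA was sequenced. The 4 groups were Longan Arillus at 500 µg/mL (high dose), Longan Arillus at 20 µg/mL (low dose), Yijin-tang at 500 µg/mL and Yijin-tang at 20 µg/mL, with 3 libraries each. The low dose of the same extract served as the baseline, so the vehicle libraries did not enter the comparison. For every gene the log2 change of Yijin-tang, 500 minus 20 µg/mL, was subtracted from the log2 change of Longan Arillus, 500 minus 20 µg/mL. A negative difference therefore means that the level moved less upwards, or further downwards, with Longan Arillus than with Yijin-tang. A log2 value of 1 is a 2-fold change, and errors written with ± are standard errors unless named otherwise. The members are the 17851 genes that passed the expression filter, of 60675 genes in the table. The solvent and the herbs changed together between the extracts, so their parts in a difference cannot be told apart.

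The 12 libraries held 20.71 to 30.28 M counts (M, mega), against 18.73 to 35.52 M counts over all 60. The high-dose Longan Arillus libraries held 24.54 to 27.78 M and the high-dose Yijin-tang libraries 23.99 to 30.28 M. No source used here says that the 3 libraries of a group came from separate cultures, so p-values measure the spread between libraries, which may be technical. Levels are CPM, the field's usual unit of counts per M counts of the library, scaled here for library composition. The first part of the library names places all Longan Arillus libraries in 1 set and all Yijin-tang libraries in another. A shift shared by all libraries of a set drops out of the difference, while a shift that depends on the dose within a set cannot be told apart from the extract. Of the 15 astroglial markers examined, 7 (GFAP, S100B, AQP4, ALDH1L1, SLC1A2, SOX2 and FABP7) lay under 1 CPM in all 12 libraries. Others were present, with VIM at 4220 to 5100 CPM, CD44 at 2550 to 2870 CPM, GJA1 at 154 to 189 CPM and SOX9 at 52.5 to 81.6 CPM. Of 10 microglia and macrophage markers, 7 lay under 1 CPM in all 12 libraries and TYROBP, C1QA and C1QB were at 0. Of 10 neuronal markers 5 lay under 1 CPM and DCX was at 0. The summed level of the neuronal markers, most of it from TUBB3, was 168 to 171 CPM at the high and 159 to 164 CPM at the low dose of Longan Arillus, against 130 to 140 CPM at the high and 162 to 171 CPM at the low dose of Yijin-tang.

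NF-kB is a family of transcription factors that inhibitors hold in the cytoplasm until a signal, such as a cytokine or a microbial product, has them degraded. The freed subunits then switch on chemokines, cytokines, adhesion molecules and survival genes, together with inhibitors that end the signal. Astrocytes and astrocytoma cells use this route when they turn inflammatory. The endoplasmic reticulum answers unfolded protein by making chaperones, and the factor ATF4 raises amino acid supply when protein synthesis is stressed. These gene groups are described first.

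In all, 276 genes (1.55% of those tested) differed between the responses at an adjusted p under 0.05 in edgeR's quasi-likelihood test. The difference was negative for 163 genes (0.913%) and positive for 113 (0.633%). It reached 2-fold for 37 of the negative and 12 of the positive genes. Over all 17851 genes the median difference was 0.00, and the 5th and 95th percentiles were -0.53 and 0.61. Of the 276 genes, 166 (115 negative and 51 positive) also passed in each of the 12 fits that left out 1 library. The Longan Arillus change passed on its own for 167 genes (0.936%), 61 higher and 106 lower. The Yijin-tang change passed for 1249 genes (7.00%), 644 higher and 605 lower. These changes come from separate libraries. In bulk RNA a lower level in fewer cells and a lower level in every cell cannot be told apart.

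Most of the contrast came from genes that moved with Yijin-tang. Of the 276 genes, 216 passed with Yijin-tang and not with Longan Arillus, and 131 of these had a negative difference. A further 23 passed with Longan Arillus and not with Yijin-tang, 10 passed with both in opposite directions and 7 with both in the same direction. The remaining 20 passed in the difference without passing for either extract. Conversely, 1016 genes called with Yijin-tang and 127 called with Longan Arillus did not pass in the difference, so no contrast was shown for them. Across the 17851 genes the changes had Pearson's r = 0.10 and Spearman's rho = 0.22, where genes are not independent replicates and low counts add noise to both axes.

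**Figure D1:**
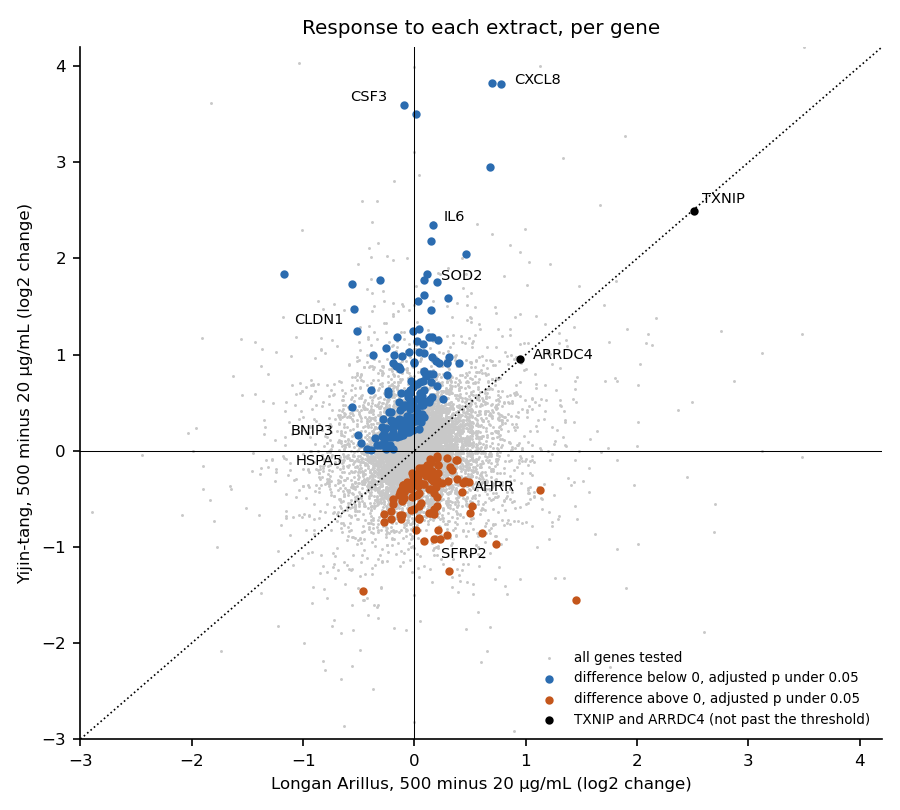
Log2 change between 500 and 20 µg/mL of Longan Arillus (x axis) and of Yijin-tang (y axis), 1 point per gene, where the dotted line marks equal changes. The 163 genes with a negative difference (blue) lie mainly along the upward Yijin-tang axis near 0 for Longan Arillus, the 113 with a positive difference (orange) lie below the line, TXNIP and ARRDC4 lie on it, and 64 genes, none past the threshold, fall outside the axes.

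The NF-kB targets had the largest median difference of the lists examined. Of 24 listed chemokines, cytokines, adhesion and survival genes, 22 were tested, and 17 of these passed with a negative difference and none with a positive one, against 0.913% and 0.633% of all genes. All 22 differences were below 0, with a median of -1.57 against 0.00 for all genes tested. With Longan Arillus 2 of the 22 rose (CXCL8 and LIF) and none fell, against 0.342% of all genes that rose, with a median change of 0.16. There 9 of the 22 had an unadjusted p under 0.05 in edgeR, DESeq2 called 2, and 5 of the 22 changes were below 0. With Yijin-tang 21 of the 22 rose, against 3.61% of all genes, with a median change of 1.81. VCAM1, the remaining one, changed by 0.25 ± 0.22 (SE) with Longan Arillus and by 0.27 ± 0.21 with Yijin-tang. CXCL6 and CCL20 did not pass the expression filter. The summed level of the microglia and macrophage markers was 172 to 202 CPM at the high and 210 to 222 CPM at the low dose of Longan Arillus, against 230 to 255 CPM at the high and 215 to 227 CPM at the low dose of Yijin-tang, and its part in the result was not tested.

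CXCL8, the neutrophil-attracting chemokine interleukin 8, was the listed target with the largest change that passed with both extracts. Its level was 4.65, 6.4 and 5.12 CPM at the high and 2.93, 3.29 and 3.21 CPM at the low dose of Longan Arillus. Its level was 52.1, 57.1 and 54.1 CPM at the high and 3.57, 3.86 and 4.09 CPM at the low dose of Yijin-tang. High and low libraries did not overlap for either extract, and the low-dose levels lay close together. CXCL8 rose with both extracts, by 0.78 ± 0.13 (adjusted p = 4.52e-04) with Longan Arillus and by 3.82 ± 0.10 (adjusted p = 3.31e-29) with Yijin-tang. The difference was -3.04 ± 0.18 with a 95% interval of -3.39 to -2.68 (adjusted p = 9.40e-17).

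Stretches of 140 bases from 4 of the promoters are shown, because these genes are textbook NF-kB targets and the motif lies close to their start. They are RefSeq sequence of GRCh38.p14, read 5′ to 3′ on the gene's strand, and capitals mark matches to GGNNNTTCC or its reverse complement. CXCL8 is at chr4:73740412-73740551, IL6 at chr7:22727060-22727199, ICAM1 at chr19:10270870-10271009 and TNFAIP3 at chr6:137867119-137867258, all on the plus strand.
CXCL8: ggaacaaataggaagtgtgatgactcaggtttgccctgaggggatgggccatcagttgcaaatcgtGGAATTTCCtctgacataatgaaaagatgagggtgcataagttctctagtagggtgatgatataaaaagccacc
IL6: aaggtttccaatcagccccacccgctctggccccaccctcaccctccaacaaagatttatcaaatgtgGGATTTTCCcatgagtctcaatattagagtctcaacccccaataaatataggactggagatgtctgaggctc
ICAM1: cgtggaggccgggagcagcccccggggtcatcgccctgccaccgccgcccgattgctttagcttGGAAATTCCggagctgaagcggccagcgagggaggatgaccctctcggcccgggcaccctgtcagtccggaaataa
TNFAIP3: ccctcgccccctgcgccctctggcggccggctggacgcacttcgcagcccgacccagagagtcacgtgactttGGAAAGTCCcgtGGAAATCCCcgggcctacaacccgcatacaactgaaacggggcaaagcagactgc

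The match begins 91 bases before the annotated start in CXCL8, 72 in IL6, 186 in ICAM1, and 67 and 55 in TNFAIP3. Within the 250 bases before the start, 12 of the 21 promoters found for the NF-kB list members past the threshold held a match on either strand (57.1%). Of the promoters found for all tested members of both NF-kB lists, 18 of 32 held one (56.2%). The share was 19.6% over the 12027 promoters found for tested genes and 17.1% over all 35116 promoters in the table. It was 24.8% (30 of 121) for the genes with a negative difference and 15.2% (12 of 79) for those with a positive one. A match is a description of these letters and not evidence of binding.

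SOD2, the mitochondrial superoxide dismutase, had 86.6, 87.4 and 84.4 CPM at the high and 78.5, 81.2 and 80.5 CPM at the low dose of Longan Arillus. Yijin-tang libraries had 306, 325 and 315 CPM at the high and 87.7, 88.9 and 87.5 CPM at the low dose. The high-dose Yijin-tang libraries thus stood apart from the other 9. The Longan Arillus change was 0.11 ± 0.05 (adjusted p = 0.4), the Yijin-tang change 1.84 ± 0.05 (adjusted p = 3.50e-30) and the difference -1.74 ± 0.07 (adjusted p = 2.79e-23), the smallest adjusted p among the named genes. WTAP, which overlaps SOD2, differed by -0.31.

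ICAM1, the adhesion molecule that binds leukocyte integrins, had 41.6, 44.8 and 44.1 CPM at the high and 41.1, 39.3 and 42.2 CPM at the low dose of Longan Arillus. With Yijin-tang it had 155, 156 and 160 CPM at the high and 43.8, 48.2 and 45.1 CPM at the low dose. Only the Yijin-tang doses were separate. The difference was -1.69 ± 0.08 (adjusted p = 1.40e-19).

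IL6, a cytokine of the acute phase, had 4.33, 4.28 and 3.97 CPM at the high and 3.89, 4.1 and 3.12 CPM at the low dose of Longan Arillus, and these ranges overlapped. With Yijin-tang it had 24.9, 22.4 and 19.3 CPM at the high and 4.85, 3.97 and 4.32 CPM at the low dose, which did not overlap. The difference was -2.18 ± 0.19 (adjusted p = 5.47e-11). Antisense and neighbouring transcripts overlap IL6, and whether counting used strand is not known here, so their reads may be shared.

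CSF3, the growth factor of granulocytes, had the largest negative difference of the genes named by rule, at low counts. It had 0.571, 0.512 and 0.593 CPM at the high and 0.524, 0.592 and 0.671 CPM at the low dose of Longan Arillus, against 7.24, 5.5 and 4.73 CPM at the high and 0.428, 0.46 and 0.525 CPM at the low dose of Yijin-tang. The difference was -3.69 ± 0.40, with a 95% interval of -4.50 to -2.87 (adjusted p = 1.84e-08). The interval is wider than that of CXCL8, which had more reads.

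IL11, a cytokine of the IL6 family, was 1 of 5 listed targets with a fitted Longan Arillus change below 0. It had 59.4, 62.3 and 67.2 CPM at the high and 73.2, 66.5 and 71.1 CPM at the low dose of Longan Arillus, against 179, 180 and 166 CPM at the high and 73.6, 80.5 and 77.9 CPM at the low dose of Yijin-tang. The Longan Arillus ranges overlapped and the change did not pass (-0.16 ± 0.06, adjusted p = 0.337). The difference was -1.33 ± 0.09 (adjusted p = 1.18e-14).

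Further targets showed the same order. BIRC3, an inhibitor of apoptosis, had 7.31 to 8.23 CPM at the high and 6.81 to 7.16 CPM at the low dose of Longan Arillus, against 29.2 to 31.5 CPM at the high and 6.38 to 6.99 CPM at the low dose of Yijin-tang, a difference of -2.03 ± 0.13 (adjusted p = 4.80e-15). The differences were -1.58 ± 0.24 for IER3, an early response gene, -1.53 ± 0.17 for the cytokine IL32, and -0.98 ± 0.06 for TNFAIP2, a gene induced by tumour necrosis factor. IL1B (-1.29), CCL2 (-0.99), IL33 (-0.91) and LIF (-0.51) also passed. CXCL1, CXCL2 and CXCL3 are close copies of each other whose reads the counting may have split, and each passed, with differences of -3.13, -2.27 and -3.48 at levels under 5 CPM in every library. PTGS2, the prostaglandin synthase cyclooxygenase-2, did not pass. It had 108, 98.5 and 84.6 CPM at the high and 81.5, 77.5 and 72 CPM at the low dose of Longan Arillus, against 144, 129 and 127 CPM at the high and 83.4, 76.4 and 72.9 CPM at the low dose of Yijin-tang. The doses were separate for both extracts, and the difference was -0.45 ± 0.14 (adjusted p = 0.0889). The differences of IL1A (-0.90, adjusted p = 0.414) and CXCL5 (-1.56, adjusted p = 0.0641) did not pass, nor did that of CSF2, which lay under 1 CPM in every library.

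**Figure D2:**
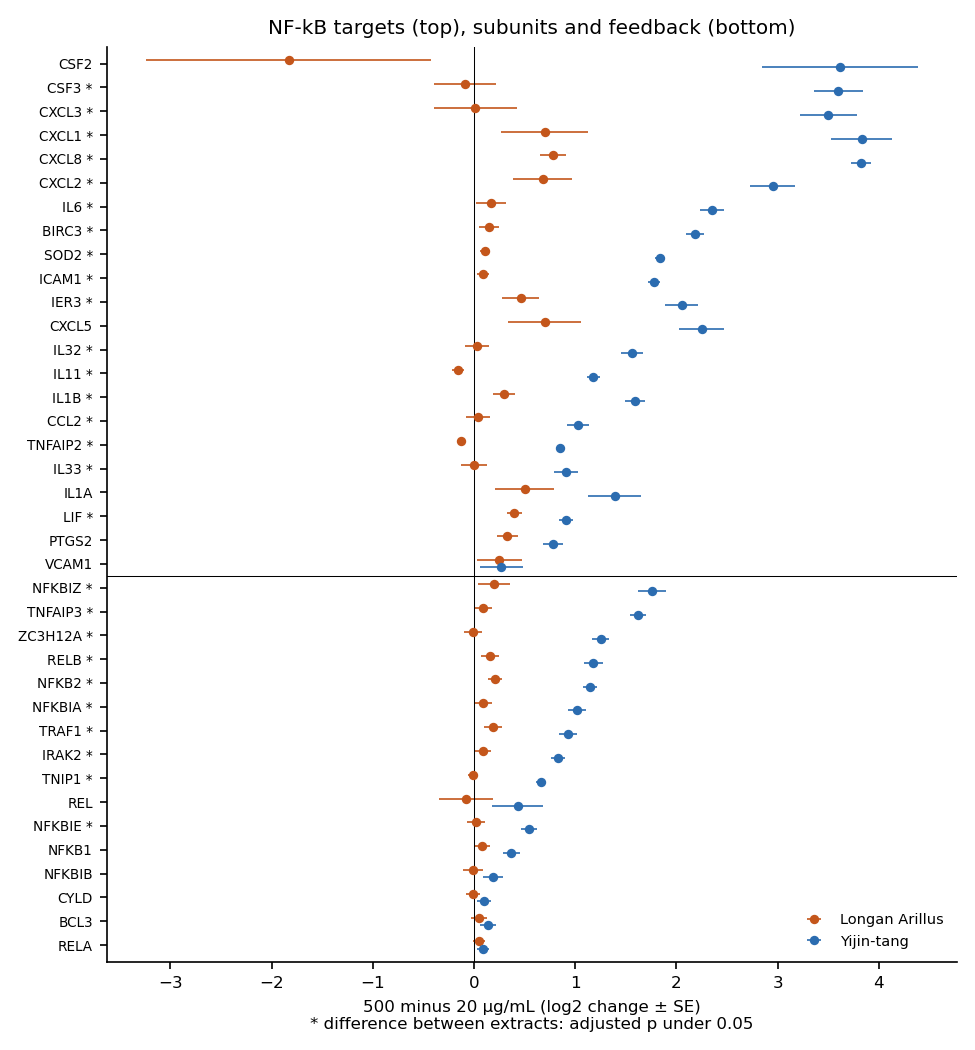
Log2 change between 500 and 20 µg/mL (x axis, points with SE bars) for Longan Arillus (orange) and Yijin-tang (blue) in the tested members of both NF-kB lists, where a star marks an adjusted p under 0.05 in the difference. The Yijin-tang points run from CXCL1 at 3.83 to RELA at 0.09, while most Longan Arillus points stay near 0, and CSF2, at counts near 0, has the widest error bars.

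The NF-kB subunits and the inhibitors that end the signal followed the targets. Of 17 genes 16 were tested, and 10 passed with a negative difference and none with a positive one, against 0.913% and 0.633% of all genes. The median difference was -0.70. None of the 16 passed with Longan Arillus (2 had an unadjusted p under 0.05 in edgeR and DESeq2 called 0). With Yijin-tang 11 rose, against 3.61% of all genes, with a median change of 0.74. TNFAIP3, the ubiquitin-editing enzyme A20 that shuts off the signal, had 15.6, 15.3 and 15.4 CPM at the high and 15.1, 14.4 and 14 CPM at the low dose of Longan Arillus. With Yijin-tang it had 53.4, 45.4 and 47.9 CPM at the high and 16.1, 16.5 and 15.1 CPM at the low dose. Its difference was -1.53 ± 0.12 (adjusted p = 1.26e-12).

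NFKBIA, the inhibitor IkB alpha, had 36.9, 42.3 and 47.7 CPM at the high and 39.7, 37.6 and 42.4 CPM at the low dose of Longan Arillus, against 102, 87.9 and 85.1 CPM at the high and 49.5, 44.3 and 42.1 CPM at the low dose of Yijin-tang. The difference was -0.93 ± 0.13 (adjusted p = 4.43e-06). NFKBIZ, a nuclear cofactor, differed by -1.56 ± 0.22, ZC3H12A, an RNase that degrades cytokine messages, by -1.26 ± 0.12, NFKB2, a subunit precursor, by -0.94 ± 0.10, and TNIP1, a partner of A20, by -0.67 ± 0.08. RELA, the main activating subunit, showed no detectable contrast, with 80.1 to 95.9 CPM at the high and 84.1 to 87.1 CPM at the low dose of Longan Arillus, against 84.3 to 99.5 CPM at the high and 83.3 to 88.9 CPM at the low dose of Yijin-tang. Its difference was -0.04 with a 95% interval of -0.21 to 0.13. MAP3K14, the kinase that starts the NFKB2 branch and not in either list, went the other way with a difference of 0.48 ± 0.08 (adjusted p = 4.10e-05), and was picked after its values were seen.

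Of 11 tested complement and acute phase genes, several of them also NF-kB targets, 5 passed with a negative difference and none with a positive one. Over all genes 0.913% and 0.633% did. The median difference was -0.24. None passed with Longan Arillus (1 at an unadjusted p under 0.05, 0 with DESeq2) and 5 rose with Yijin-tang (3.61% of all genes did). C3, the central complement protein, had 32.9, 28.8 and 29.2 CPM at the high and 27.9, 31.2 and 22.1 CPM at the low dose of Longan Arillus, against 105, 104 and 107 CPM at the high and 40.5, 39.5 and 35.3 CPM at the low dose of Yijin-tang. The Longan Arillus doses overlapped and the Yijin-tang doses did not, and the difference was -1.31 ± 0.16 (adjusted p = 2.01e-07). The pentraxin PTX3 differed by -1.33 ± 0.11, CFB, the factor B of the alternative pathway, by -1.12 ± 0.15, and the classical pathway protease C1S by -0.31 ± 0.07. The neighbouring protease gene C1R (-0.24 ± 0.06) passed in 8 of the 12 fits that left out 1 library. Reads of CFB and of the overlapping gene C2 may be shared.

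Interferon-stimulated genes separated less. Of 30 tested members, 1 passed in the difference (1.55% of all genes did), the interferon regulatory factor IRF1 (-0.46 ± 0.09, adjusted p = 0.00162). IRF1 had 25.1, 28 and 27.5 CPM at the high and 23, 25 and 22.1 CPM at the low dose of Longan Arillus, against 39.5, 37.7 and 37.4 CPM at the high and 24.2, 24.4 and 23.6 CPM at the low dose of Yijin-tang. The list's median difference was -0.24, and 27 of its 30 differences were below 0. With Yijin-tang 15 members rose (3.61% of all genes did), by 0.18 to 1.04, and none fell (3.39% did). With Longan Arillus none passed (9 at an unadjusted p under 0.05, 0 with DESeq2). For the 14 members that rose with Yijin-tang and did not pass in the difference, among them the antiviral genes MX1 (0.94 with Yijin-tang and 0.46 with Longan Arillus) and OAS1 (1.04 and 1.19), no contrast was shown.

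**Figure D3:**
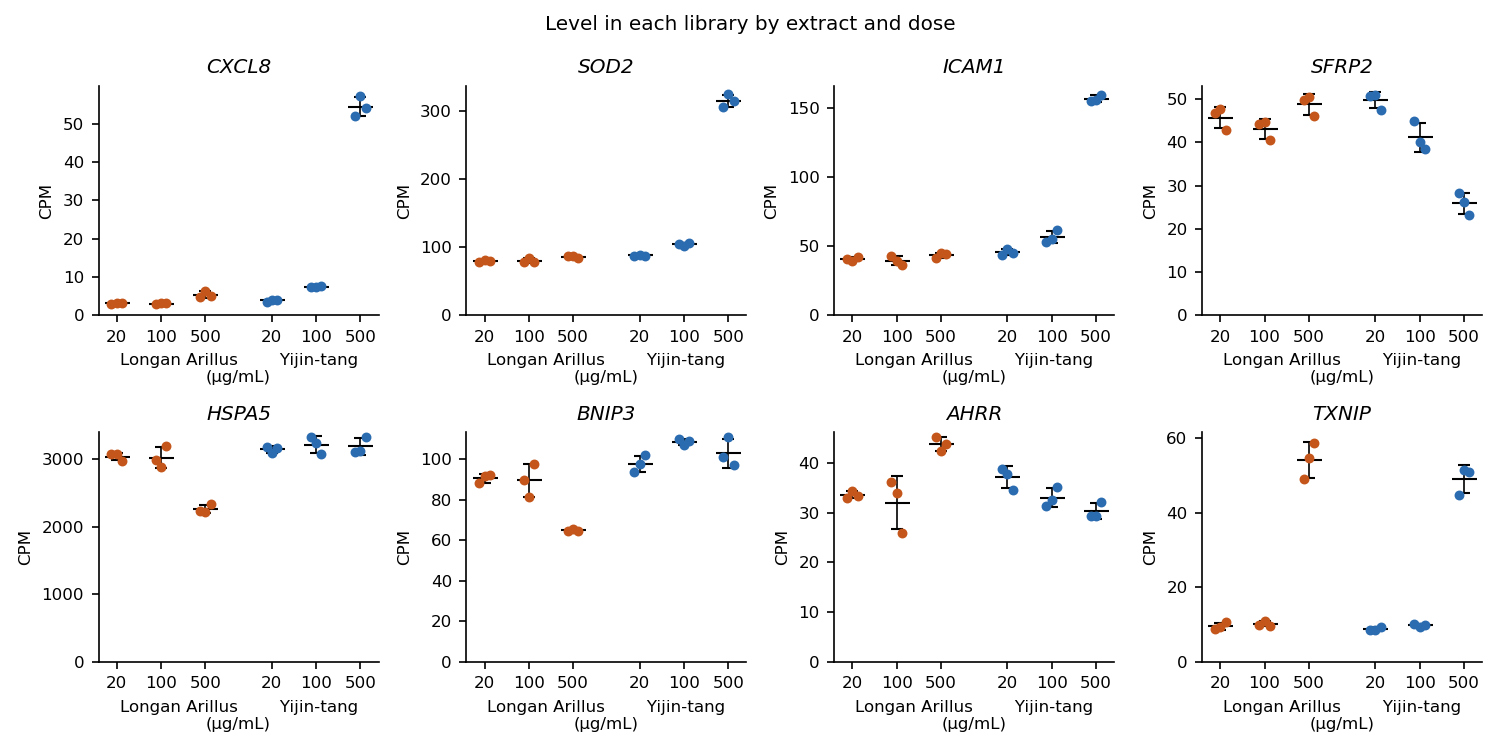
Level in CPM (y axis) of 8 genes in each library (points) with the mean and SD of 3 libraries, by dose in µg/mL, for Longan Arillus (orange, left) and Yijin-tang (blue, right). CXCL8, SOD2 and ICAM1 rise at 500 µg/mL of Yijin-tang, SFRP2 falls there, HSPA5 and BNIP3 fall at 500 µg/mL of Longan Arillus, AHRR rises with Longan Arillus and falls with Yijin-tang, and TXNIP rises at 500 µg/mL of both.

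A smaller part of the contrast came from Longan Arillus. Of the lists examined, that of the folding genes of the endoplasmic reticulum had the most members that fell with Longan Arillus. All 20 were tested, and 5 passed with a negative difference and none with a positive one, against 0.913% and 0.633% of all genes. All 20 differences were below 0, with a median of -0.18. With Longan Arillus 9 of the 20 fell (0.594% of all genes did) and none rose, with a median change of -0.18. With Yijin-tang 2 rose (HERPUD1 and DNAJB9; 3.61% of all genes did) and none fell (3.39% did), with a median change of 0.03. HSPA5, the main chaperone BiP, had 2230, 2220 and 2330 CPM at the high and 3070, 3070 and 2970 CPM at the low dose of Longan Arillus. With Yijin-tang it had 3110, 3120 and 3330 CPM at the high and 3180, 3090 and 3160 CPM at the low dose. Only the high-dose Longan Arillus libraries stood apart. The Longan Arillus change was -0.43 ± 0.04 (adjusted p = 6.96e-10), the Yijin-tang change 0.02 ± 0.04 (adjusted p = 0.868) and the difference -0.45 ± 0.05 (adjusted p = 2.77e-07).

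The promoters of 2 of these genes are shown because they hold the endoplasmic reticulum stress element, the site through which unfolded protein raises chaperones. Capitals mark the element (CCAAT, 9 bases of any kind, CCACG) on either strand, in RefSeq sequence of GRCh38.p14. HSPA5 is at chr9:125241344-125241483 on the minus strand and HSP90B1 at chr12:103930208-103930347 on the plus strand.
HSPA5: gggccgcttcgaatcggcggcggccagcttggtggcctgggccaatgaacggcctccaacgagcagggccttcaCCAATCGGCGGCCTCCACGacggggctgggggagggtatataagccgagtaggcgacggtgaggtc
HSP90B1: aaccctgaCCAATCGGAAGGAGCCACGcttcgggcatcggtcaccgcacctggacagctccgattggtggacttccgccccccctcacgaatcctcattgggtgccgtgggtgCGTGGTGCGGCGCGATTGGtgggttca

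The element begins 66 bases before the annotated start in HSPA5 and 194 and 89 bases before it in HSP90B1. It lay in 2 of the 5 promoters of list members past the threshold (40%) and in 6 of the 19 found for the list (31.6%). Over the 12027 promoters of tested genes 14 held it (0.116%).

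HERPUD1, which helps clear misfolded protein, moved in opposite directions. It had 52, 49.9 and 54.9 CPM at the high and 62.5, 59.5 and 70.3 CPM at the low dose of Longan Arillus, against 72.6, 75.4 and 73.5 CPM at the high and 65.7, 66.3 and 67.7 CPM at the low dose of Yijin-tang. The doses of each extract were separate. It fell by 0.29 ± 0.05 with Longan Arillus and rose by 0.15 ± 0.05 with Yijin-tang, a difference of -0.44 ± 0.06 (adjusted p = 1.23e-05). HSP90B1, the chaperone GRP94, had 1170 to 1270 CPM at the high and 1410 to 1450 CPM at the low dose of Longan Arillus, against 1440 to 1530 CPM at the high and 1420 to 1440 CPM at the low dose of Yijin-tang, with a difference of -0.29 ± 0.05 (adjusted p = 5.19e-04). PDIA4, a protein disulfide isomerase, differed by -0.27 ± 0.05 (adjusted p = 0.00115). The fifth member past the threshold, the secreted protective factor MANF (-0.41 ± 0.11, adjusted p = 0.0364), passed in 3 of the 12 fits that left out 1 library. CALR and HYOU1, the chaperones calreticulin and ORP150, fell with Longan Arillus by 0.26 and 0.22, but their differences of -0.19 each did not pass.

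The ATF4 targets, genes of amino acid supply and stress, showed a like pattern with fewer members. Of 27 tested, 4 passed with a negative difference and 1, STC2, with a positive one, and the median difference was -0.17. Over all genes 0.913% had a negative and 0.633% a positive difference past the threshold. With Longan Arillus 6 fell and none rose, against 0.594% and 0.342% of all genes. With Yijin-tang 3 rose and 2 fell, against 3.61% and 3.39% of all genes. SLC7A5, the large neutral amino acid carrier, had 171, 165 and 148 CPM at the high and 197, 200 and 186 CPM at the low dose of Longan Arillus, against 255, 254 and 234 CPM at the high and 211, 211 and 213 CPM at the low dose of Yijin-tang. The doses were separate for each extract and moved apart, for a difference of -0.50 ± 0.10 (adjusted p = 0.00118). AARS1, the alanyl-tRNA synthetase, had 160, 161 and 163 CPM at the high and 189, 186 and 179 CPM at the low dose of Longan Arillus, against 177, 183 and 189 CPM at the high and 177, 183 and 180 CPM at the low dose of Yijin-tang. Its difference was -0.22 ± 0.05 (adjusted p = 0.00878).

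DDIT4, an inhibitor of the growth kinase mTOR, differed by -0.55 ± 0.12 (adjusted p = 0.00417), and there the Yijin-tang change passed (0.45) and the Longan Arillus change did not (-0.10). The hormone STC2 differed by 0.29 ± 0.05 (adjusted p = 1.91e-04). It had 476 to 498 CPM at the high and 448 to 470 CPM at the low dose of Longan Arillus, against 379 to 385 CPM at the high and 444 to 447 CPM at the low dose of Yijin-tang. ASNS, the asparagine synthetase, passed (-0.32 ± 0.09, adjusted p = 0.0427), but in only 5 of the 12 fits that left out 1 library. GDF15, a stress cytokine, had the largest fall of the list with Longan Arillus (by 0.81 ± 0.14), and its difference of -0.66 ± 0.19 did not pass (adjusted p = 0.0755).

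**Figure D4:**
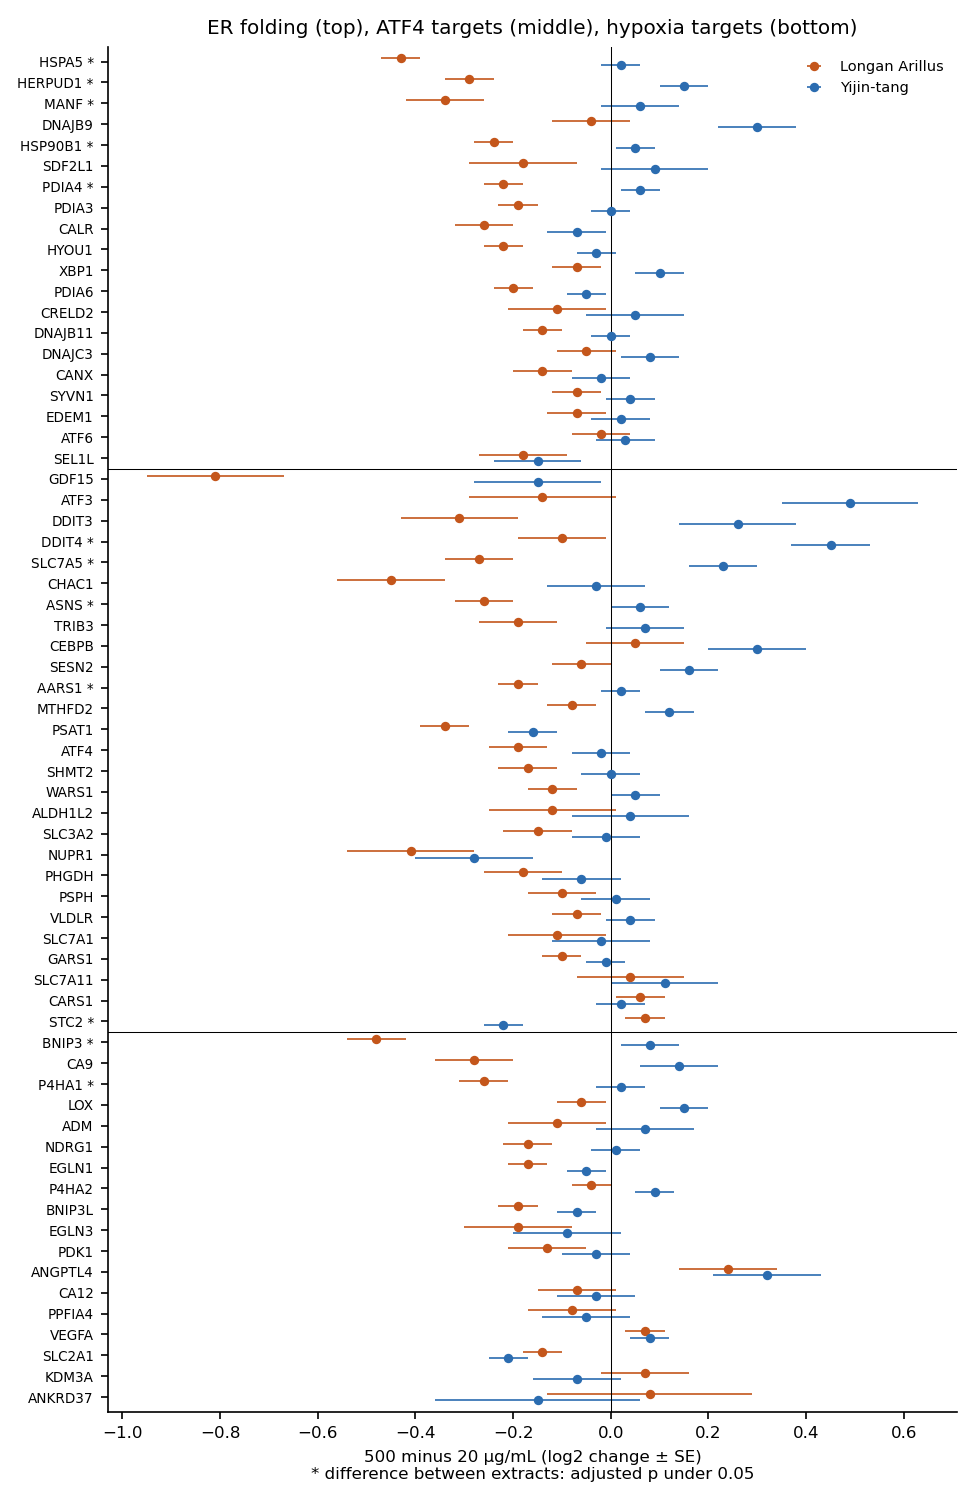
Log2 change between 500 and 20 µg/mL (x axis, points with SE bars) for Longan Arillus (orange) and Yijin-tang (blue) in the tested genes of endoplasmic reticulum folding, ATF4 and hypoxia, where a star marks an adjusted p under 0.05 in the difference. All 20 folding genes have the Longan Arillus point left of the Yijin-tang point, from HSPA5 with -0.43 and 0.02 at the top to SEL1L with -0.18 and -0.15.

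Of 18 hypoxia targets, 2 passed with a negative difference and none with a positive one, against 0.913% and 0.633% of all genes. The median was -0.11, and 4 members fell with Longan Arillus (0.594% of all genes did). BNIP3, a mitochondrial receptor for autophagy, had 64.7, 65.8 and 64.4 CPM at the high and 88.2, 91.6 and 92.5 CPM at the low dose of Longan Arillus. With Yijin-tang it had 101, 111 and 97.1 CPM at the high and 93.9, 97.7 and 102 CPM at the low dose, and these ranges overlapped. The difference was -0.56 ± 0.09 (adjusted p = 6.72e-05). The collagen prolyl hydroxylase P4HA1 differed by -0.28 ± 0.07 (adjusted p = 0.0193) and passed in 6 of the 12 fits that left out 1 library. Among 24 glycolysis and glucose transport genes, ENO2 (-0.37 ± 0.08), a glycolytic enzyme, and ALDOC (-0.55 ± 0.12), the brain aldolase, passed (1.55% of all genes did). ENO2 passed on the Longan Arillus side and ALDOC on the Yijin-tang side.

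Targets of the aryl hydrocarbon receptor, a sensor of plant and combustion compounds, had a median change of 0.34 with Longan Arillus and 0.00 with Yijin-tang. Of 7 tested, AHRR and CYP1B1 passed with a positive difference (0.633% of all genes did), and the median was 0.38. With Longan Arillus 2 rose (0.342% of all genes did), and with Yijin-tang 1 fell (3.39% did). A count of 2 is not a result about the list. AHRR, the receptor's repressor, had 45.1, 42.3 and 43.8 CPM at the high and 33, 34.4 and 33.4 CPM at the low dose of Longan Arillus, against 29.4, 29.3 and 32.1 CPM at the high and 38.8, 37.8 and 34.6 CPM at the low dose of Yijin-tang. It rose by 0.38 ± 0.07 with Longan Arillus and fell by 0.29 ± 0.07 with Yijin-tang, a difference of 0.67 ± 0.10 (adjusted p = 3.37e-05). CYP1B1, a cytochrome P450, had 143, 137 and 131 CPM at the high and 109, 116 and 101 CPM at the low dose of Longan Arillus, against 92.5, 95.9 and 100 CPM at the high and 109, 114 and 109 CPM at the low dose of Yijin-tang, with a difference of 0.54 ± 0.09 (adjusted p = 1.66e-04). CYP1A1, the best known target, lay under 2 CPM in every library, and its difference of 0.38 ± 0.30 did not pass (adjusted p = 0.852). AHRR overlaps PDCD6, and CYP1B1 overlaps its antisense gene.

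The other positive differences came mainly from genes that fell with Yijin-tang. SFRP2, a secreted modulator of Wnt signals, had 49.8, 50.5 and 46.1 CPM at the high and 46.7, 47.7 and 42.9 CPM at the low dose of Longan Arillus, against 28.2, 26.3 and 23.3 CPM at the high and 50.7, 51 and 47.6 CPM at the low dose of Yijin-tang. The high-dose Yijin-tang libraries stood apart from the other 9, and the difference was 1.03 ± 0.12 (adjusted p = 9.73e-08). LYPD1, a membrane-anchored protein that modulates nicotinic receptors, had 37.9, 40.8 and 41.9 CPM at the high and 37.7, 40.3 and 38.8 CPM at the low dose of Longan Arillus, against 21.9, 23.5 and 21.8 CPM at the high and 32.9, 38.5 and 37.4 CPM at the low dose of Yijin-tang. Its difference was 0.74 ± 0.08 (adjusted p = 6.55e-09). The matrix protein gene OLFML2B differed by 0.84 ± 0.13 and FGF13, an intracellular regulator of sodium channels, by 0.62 ± 0.08.

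Among the genes named by rule, which needed a group mean of at least 5 CPM and a call in all 12 fits that left out 1 library, IFITM10 (1.10 ± 0.15), a relative of the antiviral IFITM genes, had the largest positive difference, and it lay at a low level, as did PLXDC1 (1.03 ± 0.16), a plexin domain protein of tumour vessels. IFITM10 had 7.57 to 8.16 CPM at the high and 6.82 to 7.24 CPM at the low dose of Longan Arillus, against 2.78 to 3.64 CPM at the high and 5.85 to 6.87 CPM at the low dose of Yijin-tang. PLXDC1 had 9.24 to 10.5 CPM at the high and 7.58 to 9.8 CPM at the low dose of Longan Arillus, against 5.24 to 5.57 CPM at the high and 9.22 to 9.99 CPM at the low dose of Yijin-tang. The immediate early factor EGR3 (0.78 ± 0.17), the potassium channel KCNK2 (0.75 ± 0.17), the exchange factor PLEKHG4 (0.68 ± 0.10), and the noncoding genes MEG9 (0.80 ± 0.16) and NKAIN3-IT1 (0.79 ± 0.14) completed the named genes of this direction. In each of the 12 genes named for the largest positive differences the Yijin-tang change was negative and passed. In AHRR alone of the 12 the Longan Arillus change passed too. CLDN1, a tight junction gene in none of the lists, was among the genes named for the largest negative differences. It had 2.9 to 3.33 CPM at the high and 4.27 to 4.59 CPM at the low dose of Longan Arillus, against 9.52 to 10.5 CPM at the high and 3.54 to 4.99 CPM at the low dose of Yijin-tang, and differed by -1.77 ± 0.20 (adjusted p = 4.39e-08).

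Steroid and sterol genes gave small contrasts, apart from DUSP1. Of 9 glucocorticoid receptor targets tested, CRISPLD2 (0.30 ± 0.08), SGK1 (0.26 ± 0.07) and GLUL (0.26 ± 0.06) passed with a positive difference and DUSP1 (-0.68 ± 0.10) with a negative one. Over all genes 0.633% and 0.913% did. DUSP1, a phosphatase of MAP kinases that other signals also raise, had 41.6, 43.9 and 40.3 CPM at the high and 42.6, 40.7 and 38.4 CPM at the low dose of Longan Arillus, against 70.3, 64.8 and 64.8 CPM at the high and 43.7, 37.7 and 39.8 CPM at the low dose of Yijin-tang. CRISPLD2 and SGK1 passed in 3 and 2 of the 12 fits that left out 1 library. Of 24 cholesterol synthesis and uptake genes, 10 fell with Yijin-tang and 1, INSIG1, with Longan Arillus, against 3.39% and 0.594% of all genes. In the difference HMGCS1, which starts the mevalonate pathway, and LSS, which closes the sterol rings, passed with a positive value (0.633% of all genes did). The list's median there was 0.12. HMGCS1 had 37.2, 33.3 and 35.8 CPM at the high and 36.8, 39 and 38.4 CPM at the low dose of Longan Arillus, against 29.6, 30.1 and 28.3 CPM at the high and 37.9, 39.5 and 36.3 CPM at the low dose of Yijin-tang. Its difference of 0.27 ± 0.07 (adjusted p = 0.0399) passed in 4 of the 12 fits that left out 1 library, whereas that of LSS (0.30 ± 0.06, adjusted p = 0.0018) passed in all 12.

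Among matrix proteases and their inhibitors, 1 of 17 tested members passed with a positive and 3 with a negative difference. Over all genes 0.633% and 0.913% did. MMP2, a gelatinase, differed by 0.26 ± 0.06 (adjusted p = 0.00417), and the serpin SERPINB2, an inhibitor of urokinase, by -0.50 ± 0.10 (adjusted p = 0.00165). The collagenase MMP1 (-0.32 ± 0.08, adjusted p = 0.0248) passed in 6 of the 12 fits that left out 1 library. Between the low doses of the extracts 1 gene of 17851 passed (0.00560%), where 981 had an unadjusted p under 0.05 and DESeq2 called 12.

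Other stress and growth lists each gave few genes past the threshold, and counts of 1 or 2 in lists of this size are not results about the lists, since 1.55% of all genes passed. The metallothionein MT2A differed by -0.66 (adjusted p = 0.00433), and MT1E and MT1X, close copies whose reads the counting may have split, fell with Longan Arillus by 0.78 and 0.51. Of 19 TGF-beta and BMP readouts 2 passed with a negative difference, among them the activin subunit gene INHBA, and of 12 YAP targets NUAK2 (-0.67) and F3 (-0.40) did. Single members passed among 20 p53 targets (TNFRSF10B, -0.36), 25 NRF2 targets (TRIM16L, -0.30), 28 DNA replication genes (CDC6, -0.19), 12 fatty acid genes (FADS1, -0.36), 23 lysosome and autophagy genes (SQSTM1, -0.45) and 18 heat shock genes (HSPA8, 0.29). Among 22 immediate early genes EGR3 passed with a positive and DUSP1 with a negative difference. Of the 6 neuronal markers tested TUBB3, a beta tubulin, passed (0.57). With Yijin-tang 3 of the 6 fell (3.39% of all genes did), with a median change of -0.38. With Longan Arillus none passed (5 at an unadjusted p under 0.05, 0 with DESeq2), with a median change of -0.12.

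In all, 10 genes changed with both extracts in opposite directions, 8 of them falling with Longan Arillus and rising with Yijin-tang. SQSTM1, the autophagy adaptor p62, had 432, 461 and 447 CPM at the high and 540, 532 and 548 CPM at the low dose of Longan Arillus, against 600, 598 and 596 CPM at the high and 528, 524 and 529 CPM at the low dose of Yijin-tang. CEBPG, a transcription factor that pairs with ATF4, had 32.6, 34.2 and 33.3 CPM at the high and 40.1, 39.3 and 40.6 CPM at the low dose of Longan Arillus, against 40.3, 47.7 and 44.9 CPM at the high and 37.1, 36.5 and 38.8 CPM at the low dose of Yijin-tang. SLC39A14, the zinc and manganese importer ZIP14, had 130, 122 and 112 CPM at the high and 150, 150 and 145 CPM at the low dose of Longan Arillus, against 183, 184 and 174 CPM at the high and 158, 151 and 146 CPM at the low dose of Yijin-tang. The doses were separate in all 3 genes for each extract. BEGAIN and AHRR were the 2 that rose with Longan Arillus and fell with Yijin-tang.

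**Figure D5:**
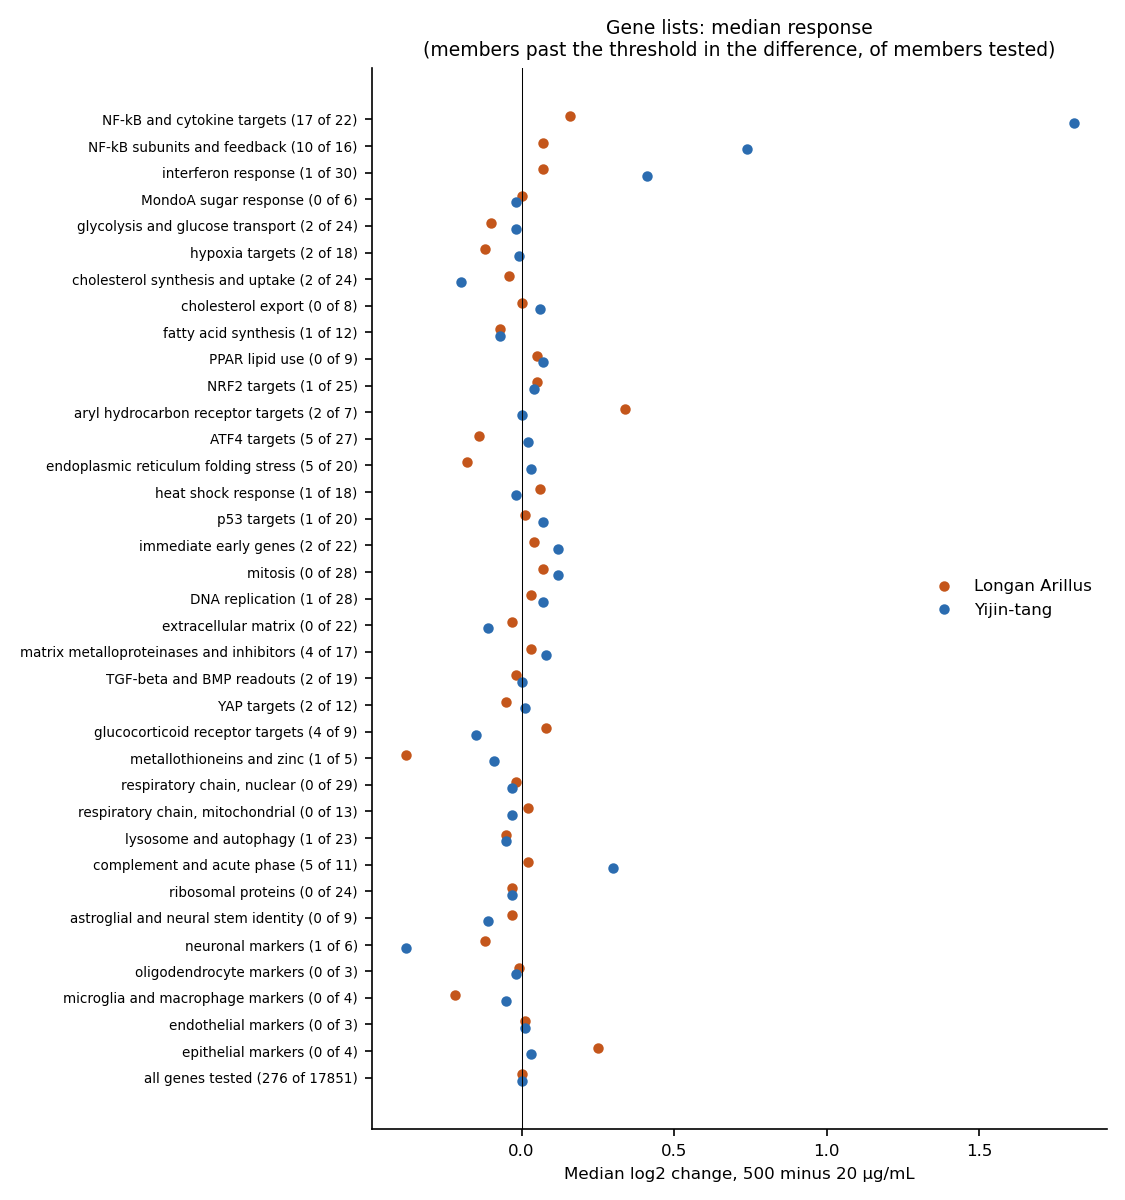
Median log2 change between 500 and 20 µg/mL (x axis) of the tested members of each gene list for Longan Arillus (orange) and Yijin-tang (blue), where the brackets give how many of the tested members passed in the difference. NF-kB targets stand furthest apart (0.16 and 1.81), and all genes tested have a median of 0.00 for both.

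Several groups gave no gene past the threshold in the difference. None of 24 ribosomal protein genes, 28 mitosis genes, 29 nuclear respiratory chain genes or 13 mitochondrial genes passed, none of these had an unadjusted p under 0.05 in edgeR, and DESeq2 called none. None passed in edgeR among 8 cholesterol export genes (3 at an unadjusted p under 0.05), 9 PPAR targets (1), 9 tested astroglial markers (2) or 6 MondoA sugar response genes (0), and DESeq2 called none of these. None passed either among the tested markers of oligodendrocytes (0 of 3 at an unadjusted p under 0.05), microglia and macrophages (1 of 4), endothelium (0 of 3) and epithelium (1 of 4), with no DESeq2 calls. The summed level of the 7 epithelial markers, 4 of them under 1 CPM in all 12 libraries, was 136 to 182 CPM at the high and 141 to 159 CPM at the low dose of Longan Arillus, against 99.3 to 112 CPM at the high and 132 to 139 CPM at the low dose of Yijin-tang. Of the 4 tested, 1 fell with Yijin-tang, and the part of these markers in the other results was not tested. Of 22 extracellular matrix genes none passed in edgeR, 3 had an unadjusted p under 0.05 and DESeq2 called 1. Within a single extract some of these genes did move. Of the 22 matrix genes 5 fell with Yijin-tang (3.39% of all genes did). Of the 28 mitosis genes 7 rose with Yijin-tang and 1 with Longan Arillus, against 3.61% and 0.342% of all genes. TXNIP, the arrestin that restrains glucose uptake, rose with both. It had 49.1, 54.6 and 58.8 CPM at the high and 8.74, 9.21 and 10.6 CPM at the low dose of Longan Arillus, against 44.8, 51.4 and 50.9 CPM at the high and 8.42, 8.47 and 9.31 CPM at the low dose of Yijin-tang. The changes were 2.51 ± 0.07 with Longan Arillus and 2.49 ± 0.08 with Yijin-tang, and the difference of 0.02 had a 95% interval of -0.20 to 0.24. For its relative ARRDC4 they were 0.95 and 0.95, with an interval of -0.26 to 0.25. In all, 71 genes passed with both extracts in the same direction, and 64 of them did not pass in the difference. HMOX1 (0.11, interval -0.07 to 0.28), CDKN1A (0.10, interval -0.15 to 0.35) and MKI67 (0.07, interval -0.45 to 0.59) did not pass either. The interval of MKI67, a marker of dividing cells, allows a difference of about the size seen in HSPA5.

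At 100 µg/mL little of the contrast was detectable. In the same test of the medium dose, which shares its low-dose libraries with the high-dose test, 2 genes passed (0.0112%), both with a negative difference and both members of the NF-kB target list. In all 692 genes, these 2 included, had an unadjusted p under 0.05, and DESeq2 called 3. The genes were CXCL8 (adjusted p = 0.0421) and IL11 (-0.51, adjusted p = 0.0268). CXCL8 averaged 3.05 ± 0.14 CPM (SD, n = 3) at 100 µg/mL of Longan Arillus and 7.44 ± 0.181 CPM at 100 µg/mL of Yijin-tang. IL11 averaged 70.5 ± 5.63 CPM with Longan Arillus and 110 ± 2.64 CPM with Yijin-tang. Each call was lost without some single library, and the count lay between 0 and 3 over those fits. The medians of the NF-kB target list were -0.29 at the medium and -1.57 at the high dose, with 20 and 22 of its 22 differences below 0. For the folding genes the medians were -0.04 and -0.18. HSPA5 averaged 3020 ± 154 CPM at 100 µg/mL of Longan Arillus, close to its low-dose level, and 3210 ± 118 CPM at 100 µg/mL of Yijin-tang. The third Longan Arillus library of the medium dose stood apart from the other 2 of its group, with a chi-square per degree of freedom of 46.7 to 51.3 where the remaining pairs of the 18 libraries of the 2 extracts gave 2.22 to 15.8. Without it, 1 gene passed.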

How the data were processed

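RNA was sequenced as 100-base paired ends from a directional kit, per the labels' protocols. Per the submitters' processing notes, FastQC 0.11.9, Trim Galore 0.6.5, STAR 2.7.3a, RSEM 1.3.3 and hg38 were used. No source used here gives the annotation release or strand setting. The authors deposited RSEM expected counts per gene (10.86% of values were not whole), which were rounded. All 60 library columns were read, and no column of another kind was used. The model took the 54 that belong to groups with replicates.

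One model took the 54 libraries of all 19 groups with replicates, in edgeR 4.0.16 (R 4.3.3, limma 3.58.1) with TMM scaling, default expression filter and quasi-likelihood F tests. P-values were adjusted by Benjamini-Hochberg over all 17851 genes, with a threshold of 0.05. There were 35 residual degrees of freedom. The 95% intervals came from the t distribution with these plus each gene's prior degrees of freedom (median 6.31). Standard errors were computed back from the test, as the absolute log2 value divided by the square root of F. DESeq2 1.42.0 was an alternative, as were other scalings, filters, library sets, replicate blocks, length and GC offsets, and leaving out each library. Symbols or GENCODE 29 names were found for 57043 genes. On simulated counts (17587 genes) the high-dose test recovered 70 of 100 genes changed 1.5-fold and 95 of 100 changed 2-fold, with 9 false among 174 calls. Those counts were drawn independently with the fitted spread of each gene. Only the high dose of Longan Arillus was changed, and not in genes of the lowest levels. Deviations that genes of a library share were not simulated, so these rates may not hold for the real libraries. Libraries of 1 group differed by more than counting noise, so none was a copy.

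Genes named by rule were the 12 largest positive and 12 largest negative differences among genes past the threshold also without each library and with a group mean of at least 5 CPM, the 6 clearest of opposite direction, leading members of the lists, and a few followed genes. Other list members were named after their values were seen. The members and lists were chosen with earlier results of these data known. One gene past the threshold is not reported here.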

Additional observations from a re-analysis of the deposited data

Results flagged for a closer look

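For 10 genes the change passed in edgeR's quasi-likelihood test with each extract, in opposite directions, and the difference itself was tested and passed. The 6 clearest of them, chosen by the naming rule above, are given here. AHRR (0.67, adjusted p = 3.37e-05) and BEGAIN (0.44, adjusted p = 1.79e-04) rose with Longan Arillus and fell with Yijin-tang. SLC39A14 (-0.54, adjusted p = 2.49e-04), CEBPG (-0.50, adjusted p = 1.64e-05), SLC7A5 (-0.50, adjusted p = 0.00118) and SQSTM1 (-0.45, adjusted p = 1.04e-04) fell with Longan Arillus and rose with Yijin-tang. Each also passed in all 12 fits that left out 1 library. AHRR and SQSTM1 overlap other tested genes.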

How the results depend on the processing

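The high-dose difference gave 276 genes, 274 to 337 under the other scalings, filters, library sets, blocks and DESeq2, 435 (172 positive and 263 negative) with length and GC offsets, and 219 to 258 without single libraries. Longan Arillus High against Low gave 167, 354 (112 higher and 242 lower) with length and GC offsets and 90 to 107 without single libraries; with upper quartile scaling the split was 76 higher and 84 lower, against 61 and 106. Yijin-tang High against Low gave 1249, 837 to 1022 without single libraries. The medium-dose difference gave 2, with 1 when the other libraries were not fitted, 0 with upper quartile scaling, 113 with no low-count filter and 0 to 3 without single libraries. Between the low doses 1 gene passed, with 0 when the other libraries were not fitted, with upper quartile scaling, with at least 5 CPM in 3 libraries and with the replicate block over the compared extracts, 95 with no low-count filter, 4 with length and GC offsets, 12 with DESeq2 and 0 to 1 without single libraries. The causes were not tested. Of the alternatives for named genes, 1160 kept the call and direction, 56 lost the call with the same direction, and 0 reversed. Between doses, libraries of the same replicate number had correlations of 0.16, -0.10 and 0.38 for Longan Arillus and 0.07, -0.01 and -0.09 for Yijin-tang. Those of different numbers ran from -0.41 to 0.35 and from -0.10 to 0.11. So few values cannot show whether replicate numbers pair the libraries. For the high-dose difference the replicate block gave 313 within library sets and 322 over the compared extracts. The block within sets gave no value between the low doses. Genes under 5 CPM in every group made up 27 of the 276. Exons of 87 of the 276 overlap another tested gene on either strand, so their reads may be shared.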

Other observations

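The genes given here were chosen after their values were seen and stand for no group. INHBA, a subunit of activin, averaged 78.1 ± 1.85 CPM at the high and 71.4 ± 3.63 CPM at the low dose of Longan Arillus, against 159 ± 6.28 CPM at the high and 70.3 ± 3.27 CPM at the low dose of Yijin-tang (SD, n = 3 each). Its difference was -1.05 (edgeR adjusted p = 4.48e-11). The fibroblast growth factors FGF7 (-0.63) and FGF2 (-0.42), the bradykinin receptors BDKRB1 (-0.68) and BDKRB2 (-0.54), and NAMPT (-0.40), which makes NAD, passed with negative differences. The homeobox genes DLX1 (0.49), DLX2 (0.50) and DLX3 (1.15), the receptor KIT (0.59), smooth muscle actin ACTA2 (0.42) and caveolin CAV1 (0.34) passed with positive ones. In the imprinted cluster on chromosome 14, MEG9 (0.80) and BEGAIN (0.44) passed, whereas MEG3 (0.36), MEG8 (0.44), RTL1 (0.20) and DLK1 (0.03) did not.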
